A study of Drosophila melanogaster with 4 samples.

Results

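The genes described here are the Drosophila metallothionein genes MtnA, MtnB, MtnC, MtnD and MtnE together with MTF-1, the gene of the metal-responsive transcription factor. They were chosen by their FlyBase symbols and make up 6 of the 17697 genes in the deposited tables. Metallothioneins are small cysteine-rich proteins that bind copper, zinc and cadmium and so buffer these metals in the cell. MTF-1 is a zinc finger protein that enters the nucleus under metal load and binds short metal response elements in the promoters of metallothionein and metal transporter genes. In flies the metallothioneins serve mainly in copper and cadmium tolerance, and both metallothionein genes and MTF-1 have been linked to oxidative and heat stress in several animals.

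Poly(A) RNA of S2 cells, a cultured line of hemocyte-like character derived from late Drosophila embryos and labelled wild type, was sequenced in 4 libraries with reads of 50 bp. All cells were grown at 27 °C in DMEM with 10% fetal bovine serum. The 2 untreated libraries came from cells with no stress, and the 2 heat shock libraries from cells held at 37 °C for 1 h and then returned to 27 °C for 1 h, so the values describe early recovery. The labels name no metal treatment in either group and give no metal content of the medium. Heat shock cultures were lysed separately by replicate. The labels do not say this of the untreated cells, so p-values measure only the spread between these libraries, which may be technical. The line is a single cell population grown in culture, and a change in RNA per cell cannot be told apart from a change in the number of cells that make it.

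The libraries held between 10221418 and 11988483 estimated counts. A reference list of 14 heat shock genes took 0.617% and 0.580% of the counts in the untreated libraries. In the heat shock libraries its share was 21.1% and 23.3%. All 14 genes were called higher after treatment, beside 21.6% of all genes tested below. Hsp70Aa (0 and 0 CPM in untreated libraries) and Hsp67Bc (0.240 and 0.489 CPM) passed a filter on low counts only through the heat shock libraries. Hsp26, a small heat shock protein gene, had 78.1 and 89.7 CPM in the untreated libraries, against 13898 and 14558 CPM in the heat shock libraries, which amounted to a log2 fold change of 7.41 ± 0.12 (SE, adjusted p of 2.0e-10 in edgeR). CPM here means counts relative to the library total after scaling by TMM, a method that assumes most genes not to change between libraries. Of the hemocyte markers, 4 of 8 were above 1 TPM in every library (TPM is the share of all transcripts, corrected for transcript length), among them srp at 85.06 to 107.65 TPM, whereas Hml, NimC1 and eater were below 1 TPM throughout. The summed TPM of these 8 markers was 357 and 362 in the untreated libraries, against 240 and 228 in the heat shock libraries, and its part in the results below was not tested. Most of this fall came from crq, with 214 and 213 TPM in the untreated libraries, against 112 and 107 TPM in the heat shock libraries. Lower TPM with no overlap between the groups was found for 77.6% of all genes tested below. Of the fat body markers, 0 of 4 were above 1 TPM in every library. Their sum was 1.39 and 1.18 TPM in the untreated libraries, against 16.0 and 15.4 TPM in the heat shock libraries, nearly all of it from Lsp1beta. Of the neuron markers, 2 of 4 were above 1 TPM in every library, with elav at 22.2 to 30.6 TPM, and of the muscle markers 1 of 3, Mlc2.

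The members are short genes on chromosome arm 3R, except for MTF-1 on 3L. Coordinates are on release 6 of the fly genome, from a later annotation of the same assembly. MtnA (FBgn0002868) lies at 3R:9783407-9784370 on the minus strand, has 2 exons and encodes a protein of 40 residues. The other 4 metallothionein genes lie about 10.6 Mb away within 174994 bp of each other. These are MtnC (FBgn0038790, 3R:20360308-20360634, plus strand), MtnB (FBgn0002869, 3R:20503102-20503746, minus strand), MtnE (FBgn0262146, 3R:20534021-20534704, minus strand) and MtnD (FBgn0053192, 3R:20534962-20535301, plus strand). Their proteins have 41 to 44 residues, and each gene has 2 exons. MtnE and MtnD are transcribed away from each other from starts 258 bp apart. MTF-1 (FBgn0040305, 3L:9430312-9439490, plus strand) has 7 annotated transcripts of 2812 to 4020 bp, whose proteins have 570 to 1006 residues.

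The first question was which members S2 cells expressed. MtnA and MTF-1 were expressed at similar levels per transcript length, and the other metallothioneins were close to the limit of detection in untreated and heat shock cells alike. The mean over the 4 libraries was 27.8 TPM for MtnA and 25.4 TPM for MTF-1, ranks 3944 and 4176 among the genes of the tables. The means of the others were 0.503 TPM for MtnE, 0.21 TPM for MtnB, 0.168 TPM for MtnC and 0.163 TPM for MtnD. The TPM ranges of MtnA and MTF-1 overlapped across the libraries, whereas the ranges of both lay far above those of MtnB to MtnE, which overlapped one another.

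MTF-1, the regulator, had 27.8 and 26.8 TPM in the untreated libraries, against 23.5 and 23.5 TPM in the heat shock libraries. Its estimated counts were 536 and 530 in the untreated libraries, against 546 and 465 in the heat shock libraries, with a posterior standard deviation of at most 4.41 counts for the assignment of reads. On the TMM scale these counts were 42.9 and 43.2 CPM in the untreated libraries, against 54.4 and 53.2 CPM in the heat shock libraries, with group means of 43.04 ± 0.259 and 53.8 ± 0.864 CPM (SD, n = 2). The groups did not overlap on either scale, as for 72.2% of the genes tested below in TMM-scaled CPM and 89.1% in TPM. The order turned with the scaling of the libraries. Heat shock libraries were the higher ones in TMM-scaled CPM and the lower ones in TPM, which was not TMM-scaled.

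MtnA, the only metallothionein gene with more than 2 counts in any library among the 5, had 30.4 and 27.7 TPM in the untreated libraries, against 26.7 and 26.3 TPM in the heat shock libraries. Its estimated counts were 52 and 46 in the untreated libraries, against 61 and 51 in the heat shock libraries. The 95% exact Poisson intervals of these counts, which cover counting error only, ran from 38.8 to 68.2 and from 33.7 to 61.4 in the untreated libraries, against from 46.7 to 78.4 and from 38.0 to 67.1 in the heat shock libraries, and all 4 intervals overlapped. On the TMM scale MtnA had 4.16 and 3.75 CPM in the untreated libraries, against 6.08 and 5.83 CPM in the heat shock libraries, with means of 3.95 ± 0.287 and 5.96 ± 0.173 CPM (SD, n = 2). As for MTF-1, the groups did not overlap, with heat shock libraries above untreated ones in CPM and below them in TPM. Of all genes tested below, 34.4% were higher without overlap in TMM-scaled CPM, and 77.6% were lower without overlap in TPM.

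MtnB, MtnC, MtnD and MtnE together had 9 counts over the 16 values of 4 genes in 4 libraries, of which 9 values were 0 and the highest was 2. MtnE was the only one of these with a read in every library, with 2 and 1 counts in the untreated libraries, against 1 and 1 in the heat shock libraries. MtnB had 2 counts in untreated replicate 2 and 0 in the other libraries. MtnC and MtnD each had 1 count, both in heat shock replicate 1. The 95% exact Poisson interval reached 3.69 counts at a count of 0, 5.57 at 1 and 7.22 at 2. A floor of 3 counts corresponded to 0.794 to 2.33 TPM for these short transcripts. Differences among levels below this floor were not detectable at this depth. Every library was under that floor for these genes, and no fold change is given. The edgeR fit with no filter on low counts was the only one that gave them an adjusted p. It called 0 of the 4, with adjusted p-values of 0.477 to 0.930 and 0 at an unadjusted p under 0.05. Over all 14297 genes tested there, 4515 were called (2295 higher, 2220 lower). With so few counts the 4 genes could hardly be called, so these p-values do not show whether they changed. The tables held 5656 genes (32.0%) with at most 3 counts over all libraries, a class that contains MtnB, MtnC and MtnD. MtnA supplied 95.9% of the counts of these 5 metallothionein genes, and their sum was 54 and 49 in the untreated libraries, against 64 and 52 in the heat shock libraries.

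**Figure D1:**
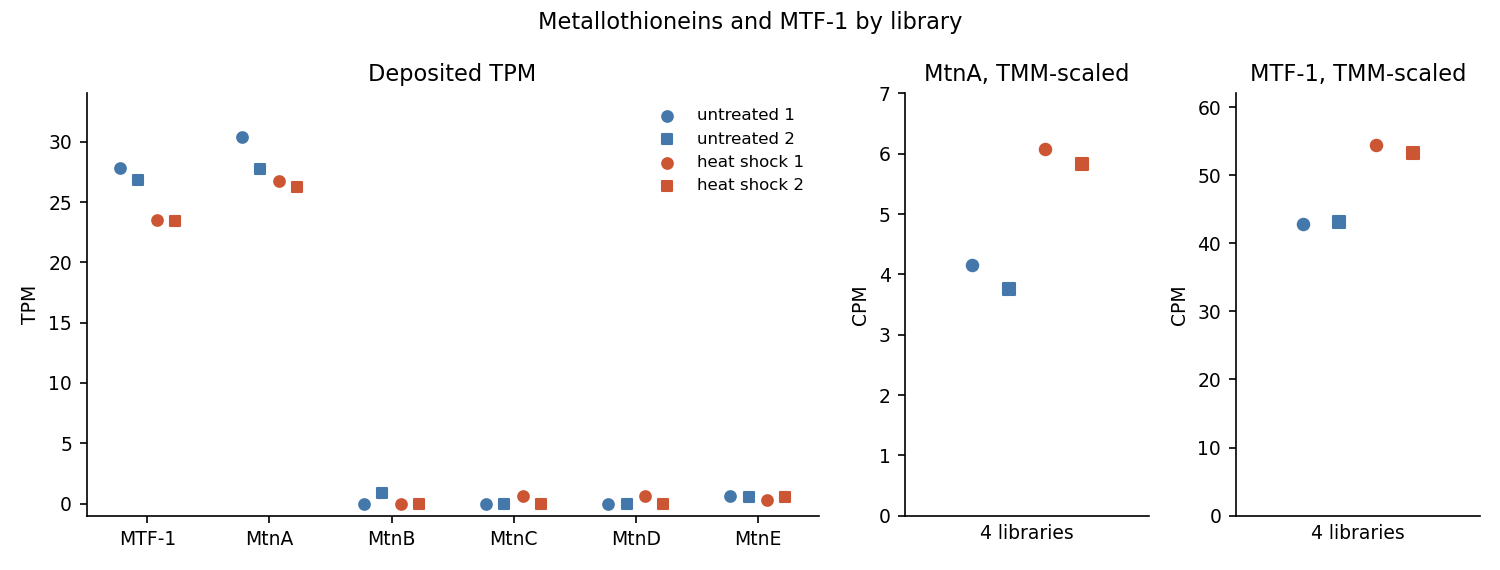
Left, deposited TPM of the 6 genes in each library (one point per library); middle and right, TMM-scaled CPM of MtnA and MTF-1. MtnB to MtnE sit near 0 TPM, and MtnA and MTF-1 lie lower after heat shock in TPM but higher in CPM.

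The plot of the members by library shows the gap between the expressed pair and the near-silent metallothioneins. It also shows the opposite order of the groups in unscaled TPM and TMM-scaled CPM.

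The second question was whether the members changed after heat shock. Of the 6 members, 2 passed the filter on low counts and could be tested, and MtnB, MtnC, MtnD and MtnE did not. With TMM scaling, both tested members were higher after heat shock in the quasi-likelihood test of edgeR at an adjusted p under 0.05, and under scaling by total counts neither was (MtnA was not past the threshold and MTF-1 was lower). Among all 8784 genes tested the same rule called 40.5%, with 21.6% higher and 18.9% lower, so a call in itself sets neither gene apart. Non-overlapping groups were also common, at 72.2% of tested genes in TMM-scaled CPM (34.4% higher, 37.8% lower) and 89.1% in TPM (11.6% higher, 77.6% lower).

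The log2 fold change of MTF-1 was 0.32 ± 0.07 (SE), or 1.25-fold (95% interval 1.12 to 1.40), with an adjusted p of 0.00717 in edgeR. That of MtnA was 0.59 ± 0.19 (SE), or 1.51-fold (95% interval 1.12 to 2.02), with an adjusted p of 0.0314. The median over all tested genes was -0.02, with quartiles of -0.26 and 0.29. The changes of MtnA and MTF-1 stood at the 85.7 and 77.1 percentiles of all tested genes, above the upper quartile in both cases and far below the change of Hsp26.

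The MtnA call was lost without any 1 library, while its fold change moved little. In these fits 1 group had a single library, assumed to vary like the other group. Leaving out untreated replicate 1 or 2 gave an adjusted p of 0.0654 or 0.134 in edgeR, and leaving out heat shock replicate 1 or 2 gave 0.109 or 0.0566, with log2 fold changes of 0.51 to 0.66 against 0.59. MTF-1 kept its call in each of these fits, at adjusted p-values of 0.00485 to 0.0486. DESeq2, the tool named in the methods of the study, gave log2 fold changes close to those of edgeR, 0.58 for MtnA and 0.31 for MTF-1, but adjusted p-values of 0.385 and 0.133, so that 0 of the 2 genes were called and 1, MTF-1, had an unadjusted p under 0.05. The same tool called 17.5% of the 10416 genes to which it gave an adjusted p, 11.7% higher and 5.79% lower.

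The direction depended on the scaling of the libraries. Scaling by total counts moved the median of all tested genes to -0.56, and with it the log2 fold change of MtnA to 0.06 (adjusted p of 0.817 in edgeR) and that of MTF-1 to -0.21 (adjusted p of 0.0318, lower after heat shock). Under that scaling 80.5% of tested genes were called, 8.86% higher and 71.6% lower. Removing the heat shock genes from the totals put the median at -0.20, MtnA at 0.41 and MTF-1 at 0.14, and 0 of the 2 genes were called, beside 54.9% of tested genes (14.8% higher, 40.1% lower). Without adjustment these p-values of edgeR were 0.0649 and 0.107, so 0 of the 2 were under 0.05 there too. A library scaling shifts every gene alike, so MtnA stood 0.61 and MTF-1 0.35 above the median of all genes with TMM and with total counts by construction. Fits that included more low genes placed them 0.47 and 0.20 above their own median, both with DESeq2 and in edgeR with no filter on low counts. On deposited TPM, the difference in log2(TPM + 1), heat shock minus untreated, was -0.13 for MtnA and -0.21 for MTF-1. Neither was past the threshold in limma. The median over all tested genes was -0.51, and 78.2% of them were called (8.62% higher, 69.5% lower). With TMM scaling of TPM, an unplanned alternative, the differences were 0.39 for MtnA and 0.30 for MTF-1. Both were called higher in limma, at adjusted p-values of 0.0185 and 0.0348, beside 1655 of 8784 genes higher and 1208 lower.

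**Figure D2:**
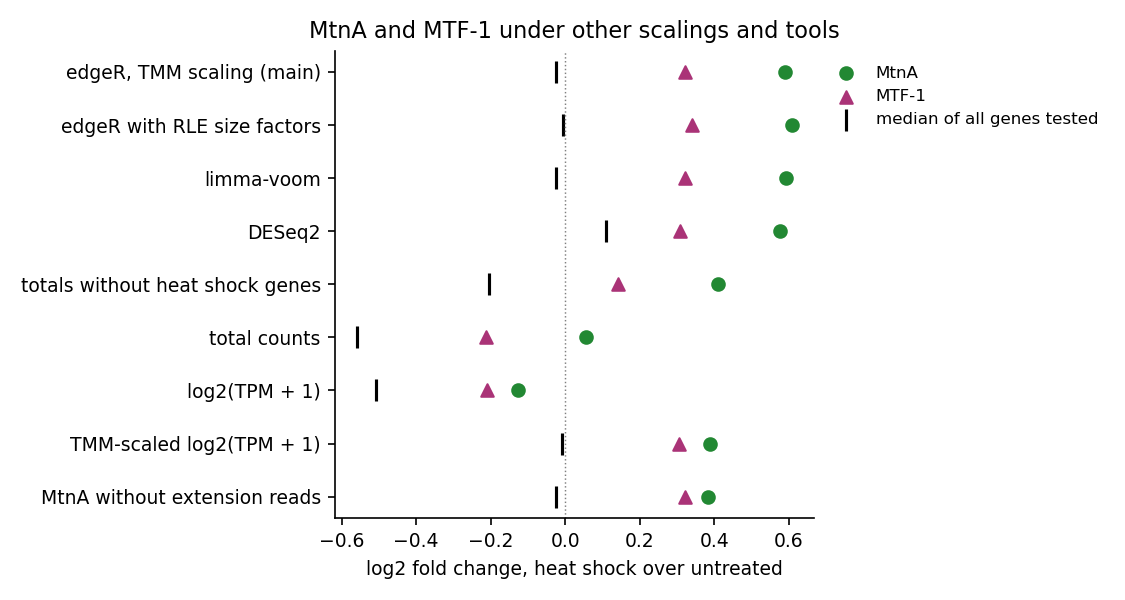
Log2 fold change, heat shock over untreated, of MtnA and MTF-1 under each scaling and tool (horizontal axis), with the median of the genes tested in that fit as a black tick. Both genes lie to the right of the tick in each fit, while their sign turns for MTF-1 under total counts and for both genes on unscaled TPM.

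The plot of the fold changes under other scalings shows the values of MtnA and MTF-1 beside the median of all genes. Among the fits drawn, values below 0 appeared only for MTF-1 under total counts and for both genes on unscaled TPM.

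MtnA was annotated with a transcript of 329 bp and one of 700 bp, which differ by a 3′ extension of 371 bp. The deposited length of the gene, an average weighted by the estimated share of each transcript, was 340 and 329 bp in the untreated libraries, against 384 and 373 bp in the heat shock libraries. These lengths correspond to a share of the longer transcript of 3.01% and 0% of MtnA transcripts in the untreated libraries, against 14.8% and 12% in the heat shock libraries. In reads, the extension held an estimated 1.99 and 0 in the untreated libraries, against 9.95 and 6.96 in the heat shock libraries, whereas the part shared by both transcripts held 50.0 and 46 in the untreated libraries, against 51.0 and 44.0 in the heat shock libraries. The extension reads were higher in both heat shock libraries and the groups overlapped in the shared part on raw counts. On the TMM scale the shared part had 4.0 and 3.75 CPM in the untreated libraries, against 5.09 and 5.04 CPM in the heat shock libraries. The groups did not overlap there, as for 72.2% of all tested genes. The extension had 0.159 and 0 CPM in the untreated libraries, against 0.992 and 0.797 CPM in the heat shock libraries. The transcript shares rest on few reads and on rounded lengths, and were not tested.

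Without the extension reads, an alternative chosen after seeing the data, MtnA had a log2 fold change of 0.38 and an adjusted p of 0.140 in edgeR, and its call was lost. The longer length also enters TPM, since the same count over a longer transcript gives a lower TPM.

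**Figure D3:**
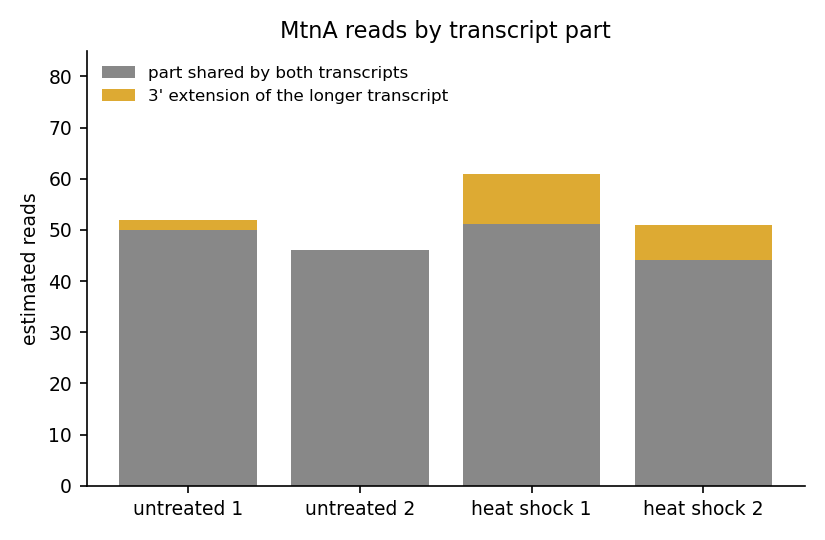
Estimated MtnA reads in each library (bars), divided into the part shared by both annotated transcripts and the 3′ extension of the longer one. The shared part held 44.0 to 51.0 reads in all 4 libraries, and the extension 0 to 1.99 reads in untreated and 6.96 to 9.95 in heat shock libraries.

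The plot of MtnA reads by transcript part is on raw counts, before any scaling. The gene beyond that 3′ end, CG12947, lies 352 bp away on the opposite strand and points towards MtnA. It had 24.0 and 30.6 estimated counts in the untreated libraries, against 78.0 and 56.6 in the heat shock libraries. On the log2 scale it was 1.69 ± 0.22 (SE) higher (adjusted p of 4.2e-04 in edgeR), and it was also higher under total counts. Whether reads beyond the annotated ends of the 2 genes contributed to the extension was not tested. On the other side, CG8500 begins 282 bp from the start of MtnA and had a log2 fold change of 0.50 with an adjusted p of 0.0955.

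The surroundings of the near-silent genes differed. MtnB is flanked by Dic2, a mitochondrial dicarboxylate carrier gene with 1 to 3 counts, and by the odorant receptor gene Or92a with 0 to 3 counts. MtnC is flanked by lncRNA:CR45023 with 1 to 3 counts and Gfrl with 0 to 2 counts, and MFS9 below MtnE had 1 to 3 counts. By contrast, Stat92E, the transcription factor gene of the JAK/STAT pathway, ends 21 bp from MtnD on the opposite strand and had 6011 and 5726 estimated counts in the untreated libraries, against 5755 and 4960 in the heat shock libraries. Its log2 fold change was 0.27 with TMM scaling (adjusted p of 0.00683 in edgeR) and -0.27 with total counts (adjusted p of 8.9e-04). MtnD had 1 count in all libraries together beside this abundant neighbour.

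Beyond the end of MTF-1, at 565 bp, lies Nf-YA, a subunit gene of the CCAAT-binding factor. Nf-YA had a log2 fold change of 0.05 with an adjusted p of 0.787 in edgeR. The antisense genes CG42526 and Bet3 overlap MTF-1, with log2 fold changes of 0.22 (adjusted p of 0.328) and 0.39 (adjusted p of 0.0496). The Bet3 value became 0.22 (adjusted p of 0.418) without heat shock replicate 1, 0.35 (adjusted p of 0.102) without untreated replicate 1 and -0.14 with total counts (adjusted p of 0.402). The sources used here do not state whether counting used the strand, so reads in these overlaps are uncertain for MTF-1. Each antisense gene had fewer counts than MTF-1 in every library, with at most 154.

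The genes whose pattern over the 4 libraries was closest to that of MTF-1, the member with the highest mean CPM, were chb, sno and Cka. The measure was the Euclidean distance between log2(CPM + 1) values centred on their mean, over 5957 genes, and gave 0.00789 for chb, 0.0117 for sno and 0.0168 for Cka. As many as 262 genes lay within a distance of 0.1, so the pattern of a small rise on the TMM scale was shared with many genes.

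The third question was whether other genes of metal handling moved. Lists of copper, zinc and iron genes held 35 names, of which 27 passed the count filter. With TMM scaling 4 were higher, 5 were lower and 18 did not pass the test, a share of 33.3% called beside 40.5% of all tested genes. Zip89B, among the 4 higher genes, passed the count filter only through the heat shock libraries. With total counts 3 were higher and 19 lower, beside 8.86% higher and 71.6% lower among all tested genes. The median log2 fold change of the 27 genes was 0.03, beside -0.02 over all genes.

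Among copper genes, 5 of 7 were tested and 0 were called in edgeR, with 2 at an unadjusted p under 0.05 and 0 called by DESeq2 or limma-voom. Other edgeR settings called 1 higher (RLE size factors, no robust estimation, at least 10 counts in every library, or without heat shock replicate 1), and the crossed pairing called 2 higher. With total counts 4 of the 5 were lower, beside 71.6% of all tested genes. Ctr1B, a copper importer that MTF-1 is known to activate when copper is scarce, had 0 counts in every library except heat shock replicate 1, which had 4. Ctr1A, the copper importer of the plasma membrane, had 37.8 and 34.3 TPM in the untreated libraries, against 28.9 and 28.7 TPM in the heat shock libraries, and a TMM-scaled log2 fold change of 0.23 with an adjusted p of 0.0532. The other copper genes tested were Atox1, the chaperone that hands copper to ATP7 (log2 fold change of 0.29, adjusted p of 0.0711), ATP7, the copper-exporting ATPase (-0.16, adjusted p of 0.122), Sod1, the copper-zinc superoxide dismutase (0.04, adjusted p of 0.619), and Ccs, its copper chaperone (-0.01, adjusted p of 0.966).

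Among zinc genes, 13 of 17 were tested, of which 3 were higher and 2 lower with TMM scaling. ZnT35C, a zinc transporter that is a known MTF-1 target, had 1 count in heat shock replicate 1 and 0 in the other libraries. Zip89B, a zinc transporter of the ZIP family, had 6 and 12 counts in the untreated libraries, against 50 and 65 in the heat shock libraries, and it had the largest rise among the tested genes of the 3 lists. At 0.480 and 0.979 CPM in untreated cells it passed the filter on low counts only through the heat shock libraries, and it was not tested where at least 10 counts in every library were required. Its log2 fold change was 3.06 (95% interval 2.26 to 3.87) with an adjusted p of 1.9e-04 in edgeR.

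Zip71B, also of the ZIP family, had 19 and 17 counts in the untreated libraries, against 28 and 37 in the heat shock libraries (log2 fold change of 1.25, adjusted p of 0.0103). Its call was lost without heat shock replicate 2, at an adjusted p of 0.0743. The ZIP gene foi had 1371 and 1422 counts in the untreated libraries, against 1933 and 1630 in the heat shock libraries (log2 fold change of 0.75, adjusted p of 2.6e-05). Zip89B, Zip71B and foi were also higher with total counts.

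The lower zinc genes were Zip48C, with 248 and 239 counts in the untreated libraries, against 154 and 134 in the heat shock libraries (log2 fold change of -0.36, adjusted p of 0.0247), and Catsup, a ZIP protein of the secretory pathway (-0.24, adjusted p of 0.0122). Zip48C lost its call without heat shock replicate 1 or 2, at adjusted p-values of 0.0744 and 0.0569, and Catsup without untreated replicate 1, at 0.0549. Their log2 fold changes in these fits, -0.36 for Zip48C in both and -0.22 for Catsup, stayed close to those with all libraries. Both were lower under total counts too, a scaling under which 71.6% of all tested genes were lower.

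Among iron genes, 9 of 11 were tested, of which 1 was higher and 3 lower with TMM scaling. The highest level in the list was that of Fer1HCH, the ferritin heavy chain, with 1118 and 1079 TPM in the untreated libraries, against 839 and 834 TPM in the heat shock libraries and a TMM-scaled log2 fold change of 0.11 (adjusted p of 0.165). Fer2LCH, annotated as the ferritin light chain, had 54 and 70 counts in the untreated libraries, against 88.2 and 62 in the heat shock libraries, with overlapping groups before scaling. The 2 ferritin genes overlap on opposite strands, so the counts of Fer2LCH are uncertain. Its log2 fold change of 0.67 had an adjusted p of 0.0235 in edgeR, became 0.14 with an adjusted p of 0.538 under total counts, and lost its call without untreated replicate 1 (0.117) or heat shock replicate 1 (0.116).

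The lower iron genes were Irp-1A, an iron regulatory protein that binds iron-responsive elements in messenger RNA, and Tsf2 and Tsf3 of the transferrin family. Irp-1A had 947 and 893 counts in the untreated libraries, against 554 and 479 in the heat shock libraries, a log2 fold change of -0.43 with an adjusted p of 0.00116. Tsf3 had a log2 fold change of -0.58 (adjusted p of 0.0145, and 0.0560 without untreated replicate 1), and Tsf2 of -0.40 (adjusted p of 0.0146). All 3 were lower under total counts as well, as were 71.6% of all tested genes under that scaling. Of the 9 metal-handling genes called, DESeq2 called 4, namely foi, Zip89B, Catsup and Irp-1A.

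**Figure D4:**
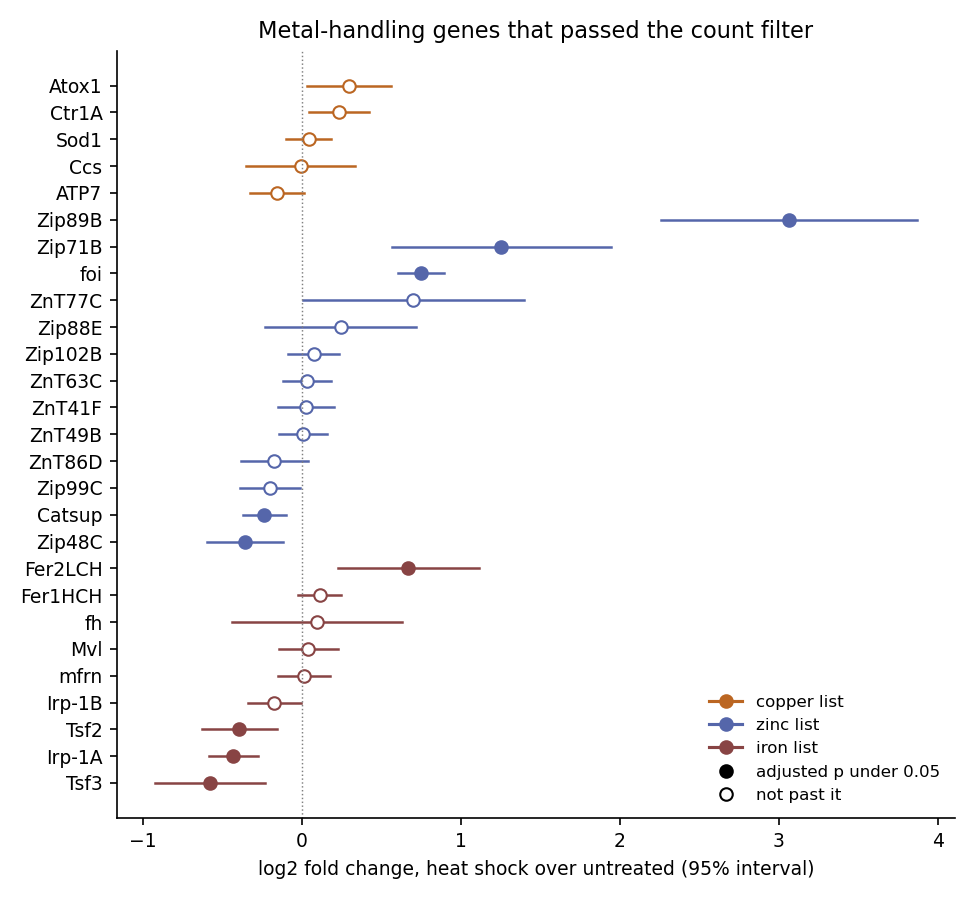
Log2 fold change with its 95% interval, TMM scaling, for the 27 tested genes of the copper, zinc and iron lists (filled points, adjusted p under 0.05). Zip89B, which passed the count filter only through the heat shock libraries, is at 3.06, and the other genes lie between -0.58 and 1.25. With total counts 19 of the 27 were lower, beside 71.6% of all tested genes.

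The plot of metal-handling genes shows most intervals crossing or close to 0. The known MTF-1 targets outside the metallothioneins, Ctr1B and ZnT35C, were too low to be drawn.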

How the data were processed

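RNA sequencing libraries of S2 cells were grouped by the stress given in the labels, 2 untreated and 2 after heat shock. Tables deposited by the authors give an expected count per gene (an estimated count, not normalized), TPM, lengths and a posterior standard deviation. The submitters' processing notes name Trimmomatic 0.36, STAR 2.6.1c and RSEM 1.3.1 on BDGP6/dm6, with annotation release 96 in the methods of the study, which name featureCounts for counting. The strand setting is not given in the sources used here. Levels and alternatives came from TPM as the authors deposited it. Pooled tables and FPKM were left out.

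Estimated counts were rounded, filtered with filterByExpr, scaled with TMM and tested with the robust quasi-likelihood test of edgeR 4.0.16 (R 4.3.3), Benjamini-Hochberg adjusted over 8784 genes at a threshold of 0.05. Standard errors came from the fold change and its F statistic. The script was tested on simulated data. Totals were 10221418, 10354706, 11988483 and 10602190 estimated counts, and the Poisson intervals of counts cover counting error only, whereas those of fold changes include the spread between libraries. Replicate pairs differed by more than sampling noise (chi-square per degree of freedom of 4.91 and 6.20), so none were merged. Symbols and coordinates came from Ensembl release 115, which matched 17570 genes.

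Members and lists were chosen with earlier results of these data known. Named genes were all members, the 5 largest rises and falls past the threshold in the metal lists, Ctr1B, ZnT35C, the nearest gene on each side, the 3 genes most like MTF-1 with at least 10 CPM, and Hsp26 and Hsp83. Neighbours overlapping MTF-1 were added afterwards. A further neighbouring gene is not reported here. Shares of MtnA transcripts were solved from its deposited length and the 2 annotated lengths. Alternatives were other scalings, DESeq2 1.42.0, limma 3.58.1 (voom), other filters, TPM with pseudocounts of 1 and 0.1, a replicate block, a threshold of 0.01 and leaving out each library. Unplanned alternatives were the crossed pairing, TMM-scaled log2(TPM + 1), MtnA without extension reads and edgeR without robust estimation. A planned description of promoter motifs was not run, since no sequence was used.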

Additional observations from a re-analysis of the deposited data

How the results depend on the processing

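Of 19 alternatives, MtnA kept its call in 8, among them the unplanned crossed pairing, TMM-scaled log2(TPM + 1) and edgeR without robust estimation. It lost the call with the same sign in 9. In 2, the values on log2(TPM + 1) and log2(TPM + 0.1), the sign turned, both at -0.13 and neither past the threshold. MTF-1 kept its call in 13 of 18, lost it with the same sign in 2 and turned sign in 3. Under scaling by totals it was called lower, at -0.21. On TPM it was at -0.21 and -0.22 with the same pseudocounts, neither past the threshold. Adjusted p-values ranged from 0.0185 to 0.817 for MtnA and from 9.1e-04 to 0.157 for MTF-1. The lowest values came from unplanned fits, TMM-scaled log2(TPM + 1) in limma for MtnA and the crossed pairing in edgeR for MTF-1. The count of changed members, 2 higher and 0 lower with TMM, was 1 with total counts (0 higher, 1 lower), 0 with totals without heat shock genes, with DESeq2 and on TPM with either pseudocount, 1 at a threshold of 0.01, 1 without the extension reads of MtnA, and 1 without each library in turn. Changed genes numbered 3556 (1897 higher, 1659 lower), against 7068 with total counts (778 higher, 6290 lower), 1824 with DESeq2 (1221, 603), 6866 on log2(TPM + 1) (757, 6109), 6803 on log2(TPM + 0.1) (737, 6066) and 2084 at the threshold of 0.01 (805 lower), and totals without heat shock genes gave 3524 lower. Changed metal-handling genes numbered 9 (4 higher, 5 lower), against 22 with total counts (19 lower), 4 with DESeq2 (2 higher, 2 lower), 22 on log2(TPM + 1) (19 lower), 21 on log2(TPM + 0.1) (2 higher, 19 lower) and 3 at the threshold of 0.01 (2 higher, 1 lower). Totals without heat shock genes gave 9 lower, and leaving out each library gave 3 to 7 lower. The cause of these shifts was not tested, apart from the scaling itself. The 4 low metallothioneins had too few counts for an adjusted p in all but the fit with no filter on low counts. That fit called 2 of the 6 members, MtnA and MTF-1, beside 4515 of the 14297 genes it tested.

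Same-numbered libraries did not deviate together (correlation of -0.17 over 8784 genes). With 2 libraries a group, this single correlation cannot settle whether the numbers pair them. With the replicate number as a replicate block, 3272 genes changed (1761 higher, 1511 lower), with 2 members and 9 metal-handling genes (4 higher, 5 lower) among them. The crossed pairing, added after seeing the data, gave 4639 genes (2324 higher, 2315 lower), 2 members and 15 metal-handling genes (7 higher, 8 lower).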

Other observations

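MtnF, a metallothionein gene that was not among the members and was chosen after its values were seen, had 5.01 and 6.08 estimated counts in the untreated libraries, against 9.1 and 3 in the heat shock libraries. It was too low to be tested, and its groups overlapped. Its TPM was 2.58 and 2.38 in the untreated libraries, against 3.33 and 1.27 in the heat shock libraries, above the mean TPM of MtnB, MtnC, MtnD and MtnE.

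Hsp83, the fly Hsp90 gene, had 3863 and 3626 CPM in the untreated libraries, against 38720 and 45668 CPM in the heat shock libraries (log2 fold change 3.49 ± 0.12 SE, edgeR adjusted p of 4.4e-08).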
